A study of Mus musculus with 9 samples.

Results

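The elements described here are mouse repeats, mostly of endogenous retroviruses, whose name starts with ERVB, MMERVK, MYSERV, RLTR or RMER. RLTRETN and the RLTR1, RLTR4 and RLTR6 series are left out. The elements were picked out by name, in a choice made with earlier results of these data known. They make up 258 of the 1146 repeat subfamilies in the count table: 21 ERVB, 5 MMERVK, 3 MYSERV, 171 RLTR and 58 RMER. Most are treated as ERVK, the mouse repeats related to betaretroviruses that also hold the IAP elements, which were left out. The names RLTR and RMER are naming series rather than a class and also cover some elements outside ERVK, such as RMER15, and the files give no class. The set is therefore called by its names here.

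An endogenous retrovirus consists of an internal part, with the remains of the gag, pro, pol and sometimes env genes, between a pair of long terminal repeats (LTRs) that hold the promoter and the polyadenylation signal. Many copies have lost the internal part by recombination and survive as solitary LTRs, some of which act as promoters or enhancers of nearby genes. In somatic cells such elements are kept silent by CpG methylation, which UHRF1 maintains by bringing DNMT1 to newly replicated DNA, and by H3K9 methylation set by SETDB1, which TRIM28 and KRAB zinc finger proteins bring to the sequence.

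The RNA came from satellite cells, which are muscle stem cells, taken from hindlimbs of 9-week-old mice. The 3 Control libraries are from mice given oil. The 3 Mutant libraries are from mice that lack Uhrf1 in satellite cells and were given tamoxifen, injected intraperitoneally over 5 days in a row (150 µl at 20 mg/ml). Cells of both groups were seeded at 5000 cells/cm2 on Matrigel and cultured for 3 days. RNA was depleted of ribosomal RNA and sequenced as strand-specific paired reads. A further 3 Cre Control libraries, from tamoxifen-treated mice, were not analysed here. The sources used here name neither the Cre driver nor the Uhrf1 allele. Oil and tamoxifen follow the groups, so an effect of tamoxifen or Cre and an effect of Uhrf1 loss cannot be told apart. No label ties the libraries to different animals. The p-values thus cover only the scatter of these libraries, part of which may be technical. In bulk RNA a larger share of expressing cells and more RNA per cell cannot be told apart.

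Total repeat counts were 1794698 to 2245124 per library, and the named elements took 4.11% to 5.16% of them. One library stood apart from its group, the library labelled Control 3. IAP elements took 0.8002% and 0.991% of repeat counts in Control 1 and 2, 15.0% in Control 3 and 10.6%, 12.7% and 18.4% in Mutant 1 to 3. Across subfamilies with at least 20 counts, Control 3 differed from Control 1 and 2 by 288 and 331 (chi-square over degrees of freedom), and from the Mutant libraries by 20.6 to 23.8. The Mutant libraries differed from each other by 15.7 to 61.7, so Control 3 lay within their own spread. Control 1 and 2 were the closest pair, at 3.19, still above sampling noise. Calls below are therefore given over all 6 libraries and without Control 3, and where 1 value is given it is that of 6 libraries. Whether its label is right was not tested. In the authors' deposited gene table Uhrf1 had a mean of 118 TPM in Control and 20.4 TPM in Mutant (log2 test estimate −3.12, SE 0.60, adjusted p = 4.01e-06), and that table holds no value per library. This estimate is the authors' test statistic times its SE, and the log2 fold change they give beside it is −2.47. The Control mean behaves as a mean of 3 values (below), so Control 3 would be part of it. Which libraries stand behind the test estimate was not tested.

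The first question was whether these elements as a set were more abundant in Uhrf1-deficient cells. Of the 258, 240 had enough counts to be tested in 6 libraries. The other 18 had 0 to 57 counts in all, and 2 of them had none. Levels are TMM-normalised CPM, that is, scaled repeat counts. TMM scaling assumes that most subfamilies do not differ. They are shares of repeat reads, with no correction for length or copy number, so levels are not compared between subfamilies. The tested elements had a mean level of 5.87 to 2081 CPM, with a median of 75.2 CPM.

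The summed level was 45040, 44775 and 46605 CPM in Control 1 to 3 and 46280, 46800 and 46731 CPM in Mutant 1 to 3. Control 1 and 2 lay below every Mutant library, and Control 3 lay between the Mutant values. The Control mean was 45473 ± 989 CPM and the Mutant mean 46604 ± 283 CPM (SD, n = 3 each), 2.49% higher, and scaling by total counts turned the direction (log2 ratio −0.16 in place of 0.04). An exact two-sided permutation test gave p = 0.2, with 0.1 the smallest value that 3 against 3 libraries allow and 0.4 after Benjamini-Hochberg adjustment over the 8 sums compared. The groups overlapped through Control 3, and the difference did not pass the test. As a share of raw repeat counts it was 5.16% (95% Wilson interval 5.13% to 5.19%) and 5.14% (5.11% to 5.17%) in Control 1 and 2, 4.35% (4.32% to 4.37%) in Control 3, and 4.62%, 4.36% and 4.11% in the Mutant libraries. The raw share was thus lower in the 4 libraries in which IAP elements took a larger part of the counts.

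By name group, only the MMERVK sum had non-overlapping groups. It was 779, 746 and 992 CPM in Control and 1124, 1077 and 1178 CPM in Mutant, 1.34-fold higher (exact permutation p = 0.1, adjusted 0.4), and higher under every scaling tried. A single element, MMERVK10C-int, made up 450 of the mean of 839 CPM in Control and 620 of 1126 CPM in Mutant. The ERVB sum was 747, 737 and 915 CPM in Control and 872, 959 and 864 CPM in Mutant (exact permutation p = 0.3). The RLTR sum was 23702 ± 911 and 24406 ± 569 CPM (SD, n = 3 each, exact permutation p = 0.3), and both the ERVB and the RLTR difference turned negative with total counts. RMER elements, which carry much of the reads, were level, with Control at 19136 ± 134 and Mutant at 19206 ± 269 CPM (SD, n = 3 each, exact permutation p = 0.8). MYSERV elements stood at 997 ± 53.2 and 967 ± 52.9 CPM (SD, n = 3 each, exact permutation p = 0.6). In each of these 4 groups the Control and Mutant libraries overlapped. Without Control 3 the log2 ratio of the sums was 0.56 for MMERVK, 0.28 for ERVB, 0.07 for RLTR, 0.00 for RMER and −0.07 for MYSERV, beside 0.42, 0.17, 0.04, 0.01 and −0.04 over 6 libraries.

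**Figure D1:**
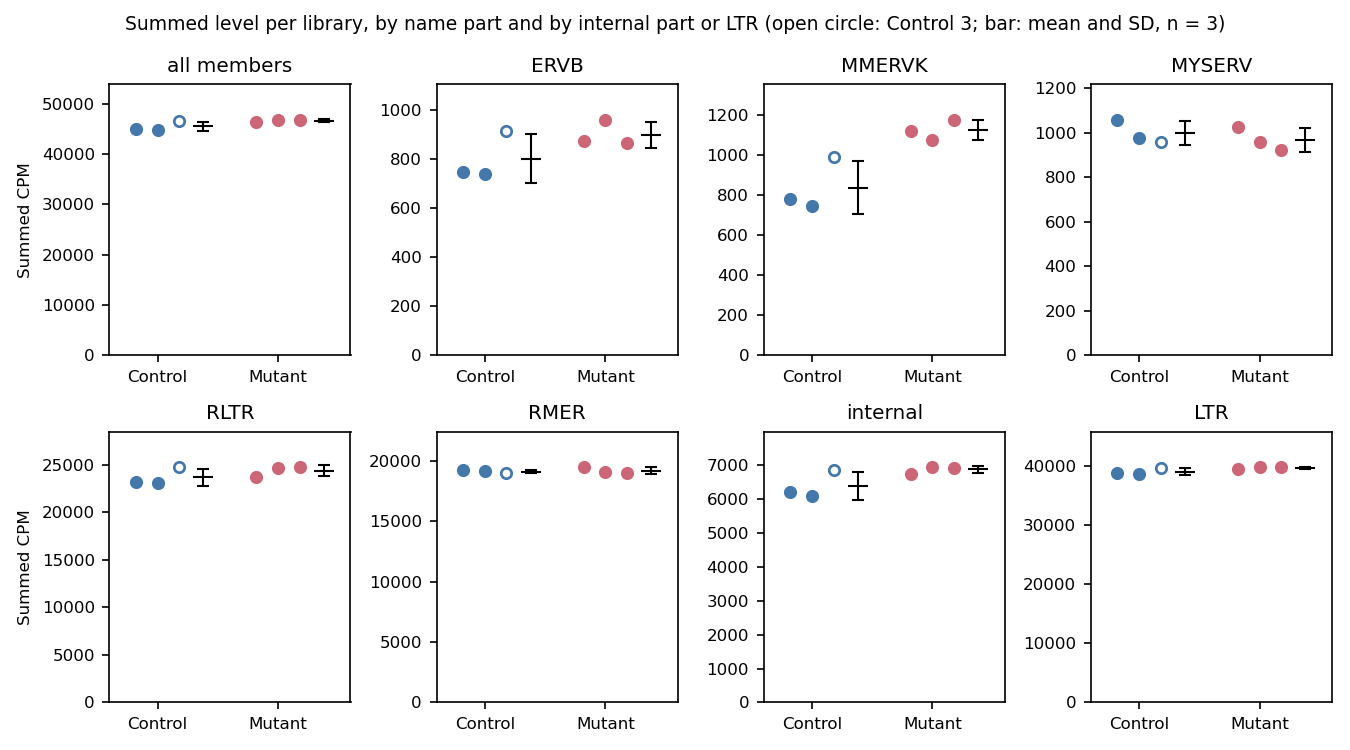
Summed level of each name group in each of the 6 libraries, in TMM-normalised CPM of repeat counts; points are libraries and Control 3 is drawn apart. Every Mutant library lies above every Control library for MMERVK, while the groups overlap for ERVB, RLTR, RMER and MYSERV, and with total counts in place of TMM the ERVB, RLTR and RMER differences change sign.

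No element passed an adjusted p of 0.05 over the 6 libraries in edgeR's quasi-likelihood test, and none of all 984 subfamilies tested did either (0%). At an unadjusted p under 0.05, 19 of the 240 were higher in Mutant (6.61% of all subfamilies) and 7 were lower (4.67% of all). The median log2 fold change of Mutant over Control was 0.03, beside 0.00 for all subfamilies, and 232 of the 240 lay within 0.5 of 0. It was above 0 for 144 of 240, or 60%, against 49.0% of all subfamilies. Scaling by total counts lowered the median of the 240 to −0.17 and that of all subfamilies to −0.20, so the sign of so small a difference changed under that scaling. For the 50 elements named by rule, TMM without IAP rows and DESeq2 size factors each kept every sign. Total counts reversed 15 of them. Every Mutant library lay above every Control library for 22 elements (9.17%, against 8.54% of all subfamilies) and below for 12 (5%, against 9.25%), so neither count stood far above its background. DESeq2's Wald test on the same 6 libraries called 5 elements higher and none lower, beside 1.32% higher and 0.305% lower of all subfamilies. Those 5 were MMERVK10C-int, MMERVK9C_I-int, RLTR13D3, RLTR44-int and RLTR30D_RN. Limma-voom called none.

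Without Control 3, edgeR called 17 of 241 elements (7.05%), all higher in Mutant, beside 7.34% of all 994 subfamilies. By direction, 6.94% of all were called higher and 0.402% lower. Of the other repeats 56 of 753 (7.44%) were called, so the share called in the set lies near the background. The median log2 fold change was 0.04 against 0.00 for all, and 151 of 241 elements (62.7%) were above 0, against 51.0% of all subfamilies. An absolute log2 fold change above 1 was reached by 5 of 241 (2.07%), against 2.41% of all, and over 6 libraries by 0 of 240, against 1.22% of all. The 17 comprised 4 of 5 MMERVK, 4 of 17 ERVB and 9 of 162 RLTR elements, and none of 54 RMER and 3 MYSERV elements. The count rests on few libraries. Leaving out Control 1 or Control 2 as well left 2, MMERVK10D3_I-int and MMERVK10C-int, leaving out Mutant 2 or 3 left 11 each, and leaving out Mutant 1 gave 39, of which 32 were higher. With total counts in place of TMM, 8 were higher and 78 lower. No share of all subfamilies is given for these other fits, and over 6 libraries total counts lowered the median of all subfamilies as well. These counts thus describe the fits and are not a result about the elements.

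**Figure D2:**
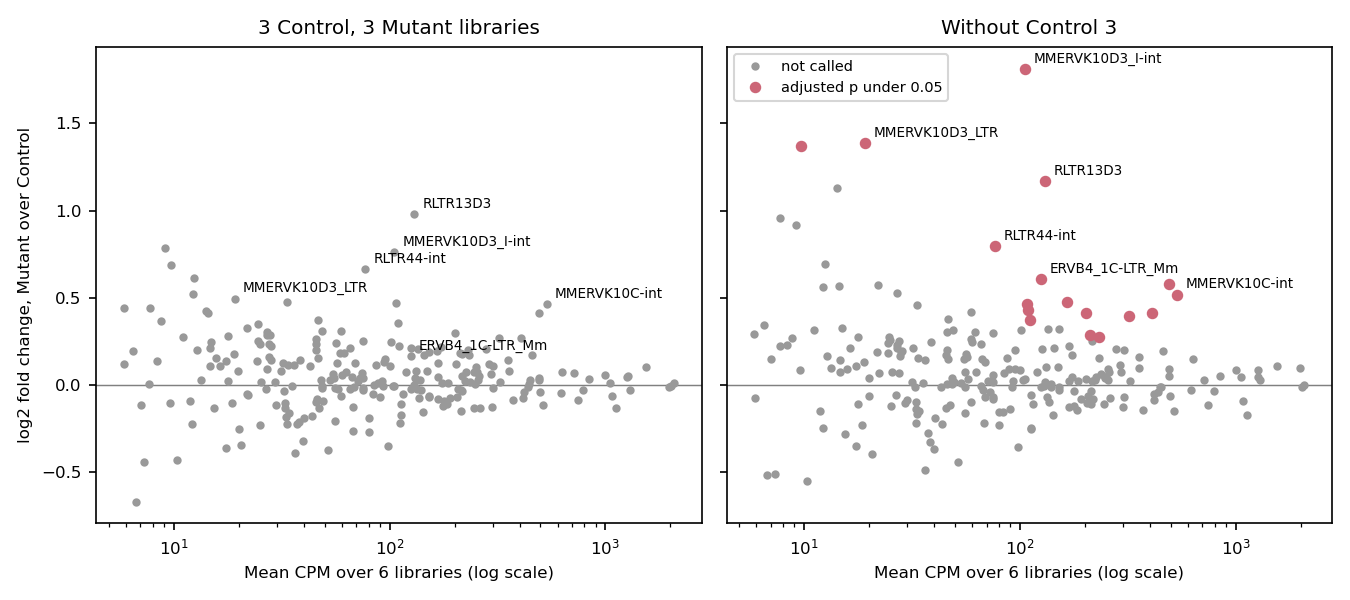
Log2 fold change of Mutant over Control against mean level (log10 axis, CPM of repeat counts) for the tested elements, with and without Control 3. Most of the named elements lie near 0 (232 of 240 within 0.5 in the fit of 6 libraries), and the 17 called without Control 3 all lie above 0.

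MMERVK was the only name group whose sum did not overlap between Control and Mutant. Of its 5 elements, 2 had every Mutant library above every Control library (8.54% of all subfamilies did). EdgeR called none of the 5 over 6 libraries. MMERVK10C-int is the internal part of a young, partly intact provirus that is known for being derepressed when TRIM28 or SETDB1 is lost. It stood at 443, 424 and 482 CPM in Control 1 to 3 and 653, 596 and 612 CPM in Mutant 1 to 3. All 3 Mutant libraries lay above all 3 Control libraries, Control 3 included. The mean was 1.38-fold higher, with a log2 fold change of 0.46 (SE 0.06, adjusted p = 0.126) over 6 libraries and 0.52 (SE 0.06, adjusted p = 0.000444) without Control 3. DESeq2 called it over 6 libraries (adjusted p = 7.94e-07). Over the 15 settings tried its adjusted p ranged up to 0.518 while its log2 fold change stayed between 0.27 and 0.52.

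Its LTR, which carries the name RLTR10C, stood at 254, 249.9 and 223 CPM in Control and 265, 273 and 241 CPM in Mutant. These groups overlapped, with a log2 fold change of 0.10 (SE 0.07, adjusted p = 0.622) over 6 libraries and 0.04 (SE 0.07, adjusted p = 0.769) without Control 3. The call on the internal part therefore had no counterpart in the LTR row. The difference between both rows was not tested, and solitary copies of RLTR10C are counted in the same row. RLTR10C is not among the elements named by rule and was chosen as the partner of MMERVK10C-int.

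MMERVK9C_I-int, another internal part, had 96.8, 85.4 and 88.6 CPM in Control and 115, 122 and 137 CPM in Mutant. Here Control 3 lay between Control 1 and 2, and the groups did not overlap. The log2 fold change was 0.47 (SE 0.09, adjusted p = 0.134) over 6 libraries and 0.46 (SE 0.11, adjusted p = 0.0308) without Control 3, so the size of the difference did not depend on that library. It was the only one of the 17 in which Control 3 did not exceed both other Control libraries. The related MMERVK9E_I-int had 199.5, 186 and 223 CPM in Control and 225, 221 and 239.6 CPM in Mutant, and did not pass in either fit (adjusted p = 0.449 and 0.0807).

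MMERVK10D3 behaved differently. Its internal part MMERVK10D3_I-int stood at 33.6, 40.4 and 165 CPM in Control 1 to 3, and Mutant 1 to 3 had 114, 116 and 163 CPM. Control 3 was the highest of all 6 libraries. The Mutant mean was 3.54 times that of Control 1 and 2, and Control 3 was 4.46 times that mean. The log2 fold change was 1.81 (SE 0.19, adjusted p = 0.000148) without Control 3 and 0.76 (SE 0.54, adjusted p = 0.611) with it. Its LTR, MMERVK10D3_LTR, went the same way at lower counts, with 5.84, 10.5 and 32.4 CPM in Control and 17.3, 22.8 and 25.9 CPM in Mutant (1.39 without Control 3, SE 0.31, adjusted p = 0.0211, and 0.49, SE 0.53, adjusted p = 0.710 with it). Both calls thus depend on leaving out Control 3. IAP elements split the libraries in the same way, and their part in this result was not tested. Reads of near-identical copies may be split between such rows, and the sources used here do not say how such reads were counted.

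**Figure D3:**
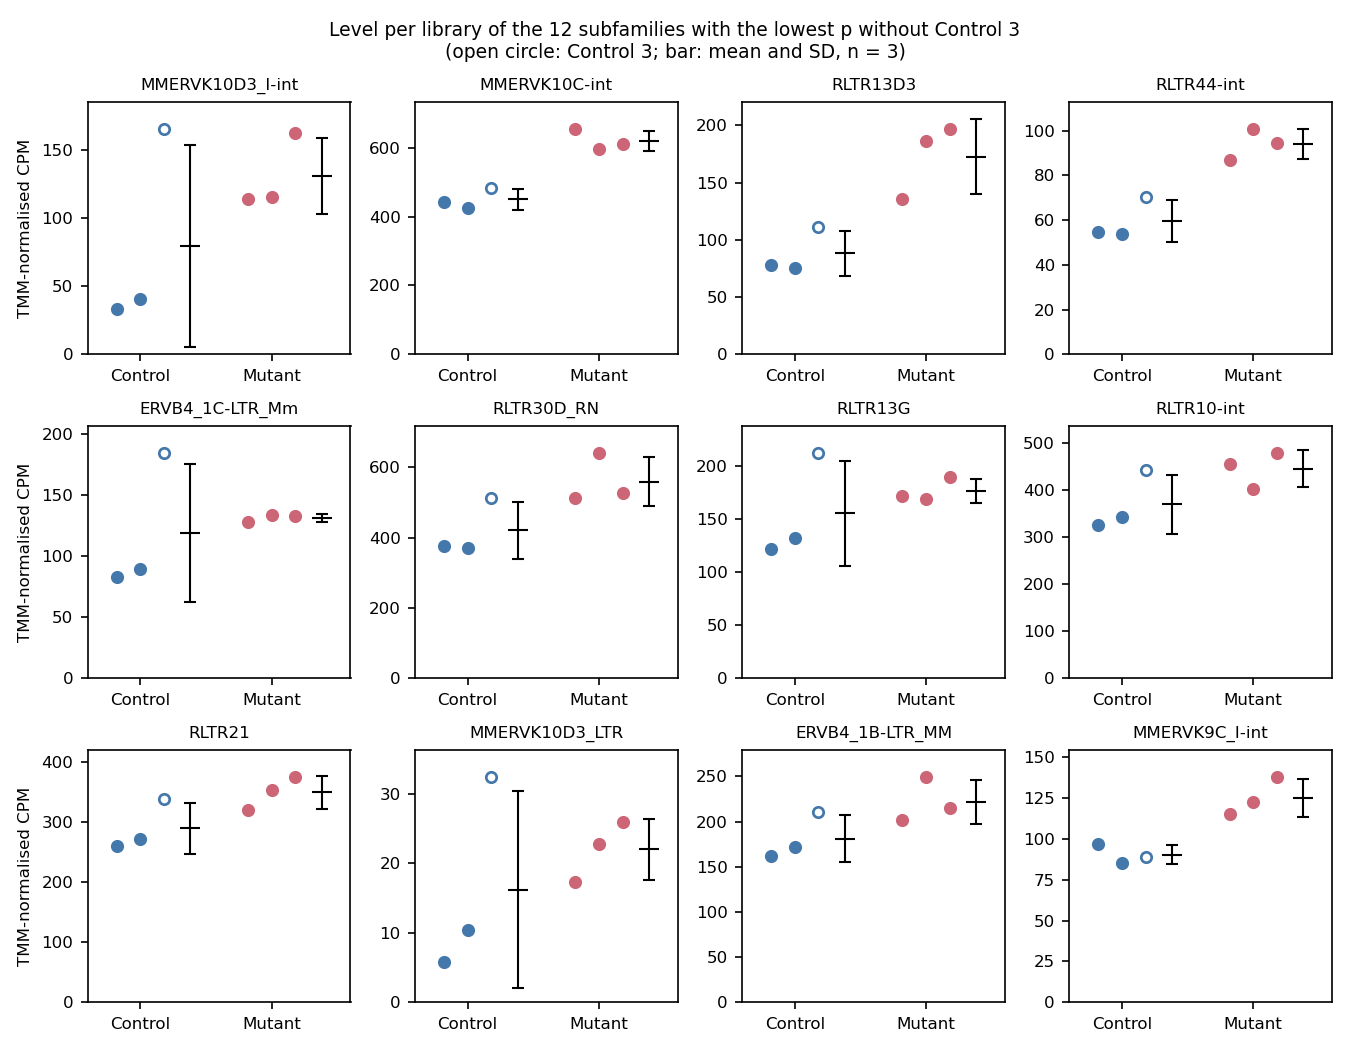
Level of leading elements in each of the 6 libraries, in TMM-normalised CPM of repeat counts, with Control 3 drawn apart. In MMERVK10C-int and RLTR13D3 Control 3 lies below all Mutant libraries (482 against 596 to 653 CPM, and 111 against 135 to 196 CPM), while in MMERVK10D3_I-int it lies above them (165 against 114 to 163 CPM).

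Of the 21 ERVB elements, proviruses of the betaretrovirus type named by branch and by part, 17 could be tested. Their median log2 fold change was 0.11 over 6 libraries and 0.19 without Control 3, and none passed over 6 libraries. ERVB4_1C-LTR_Mm stood at 82.7, 89.6 and 184 CPM in Control 1 to 3 and 128, 134 and 133 CPM in Mutant. It rose by a log2 fold change of 0.61 (SE 0.09, adjusted p = 0.00266) without Control 3, but Control 3 exceeded every Mutant library, and over 6 libraries the value was 0.16 (adjusted p = 0.838) and turned negative with total counts (−0.00229). The same order held for ERVB5_1-I_MM-int, with 4.38, 4.66 and 13.8 CPM in Control and 12.1, 9.44 and 13.7 CPM in Mutant (1.37 without Control 3, adjusted p = 0.0357, and 0.69, adjusted p = 0.578 with it), and for ERVB7_1-LTR_MM, with 87.6, 95.8 and 124 CPM in Control and 121, 124 and 112 CPM in Mutant (0.37, adjusted p = 0.0465, and 0.22, adjusted p = 0.537). ERVB4_1B-LTR_MM had 162, 172 and 211 CPM in Control and 202, 249 and 215 CPM in Mutant, with Control 3 inside the Mutant range (0.41 without Control 3, adjusted p = 0.0259, and 0.29, adjusted p = 0.419 with it). All 4 ERVB calls therefore depend on leaving out Control 3.

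A pair of ERVB internal parts had every Mutant library above every Control library without passing over 6 libraries or without Control 3. ERVB4_1B-I_MM-int had 38.4, 41.9 and 40.9 CPM in Control and 61.3, 45.6 and 49.8 CPM in Mutant (log2 fold change 0.37, SE 0.14, adjusted p = 0.409). ERVB4_3-I_MM-int, at the low end of the counts, had 6.81, 5.43 and 7.96 CPM in Control and 11.01, 15.0 and 8.65 CPM in Mutant (0.79, SE 0.28, adjusted p = 0.393), and it was called without Control 3 when the replicate number was a block. The other 11 tested ERVB elements had log2 fold changes from −0.23 (ERVB5_2-LTR_MM) to 0.61 (ERVB3_1-LTR_MM), with adjusted p of at least 0.506 over 6 libraries and 0.325 without Control 3. They were, beside that pair, ERVB2_1A-I_MM-int, ERVB3_1-I_MM-int, ERVB4_1-I_MM-int, ERVB4_2-I_MM-int and ERVB5_1-LTR_MM, as well as ERVB7_2-LTR_MM, ERVB7_2B-LTR_MM, ERVB7_3-LTR_MM and ERVB7_4-LTR_MM.

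Among RLTR elements, RLTR13D3 had the highest fold change of all elements tested over 6 libraries. RLTR13 is a large series of ERVK LTRs, of which RLTR13D5 is known as an enhancer in trophoblast stem cells. RLTR13D3 stood at 78.4, 75.3 and 111 CPM in Control 1 to 3 and 135, 186 and 196 CPM in Mutant 1 to 3. The groups did not overlap, and Control 3 lay between them. The mean was 1.96-fold higher, with a log2 fold change of 0.98 (SE 0.19, adjusted p = 0.134) over 6 libraries and 1.17 (SE 0.15, adjusted p = 0.000835) without Control 3. It was called by DESeq2 (adjusted p = 9.12e-07), and with total counts in place of TMM it was the only element that edgeR called over 6 libraries (0.78, adjusted p = 0.00384). Over the 15 settings its adjusted p ranged up to 0.635 and its log2 fold change from 0.78 to 1.17.

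The other RLTR13 elements went in both directions. Of the 23 RLTR13 elements tested, 13 had a log2 fold change above 0 and 10 below, with a median of 0.02. RLTR13D5, shown for that known role and not by rule, stood at 73.0, 50.4 and 74.8 CPM in Control and 71.8, 56.1 and 74.3 CPM in Mutant, with overlapping groups (0.05, adjusted p = 0.937, and 0.15, adjusted p = 0.687 without Control 3). RLTR13D3A1 had 100.3, 82.6 and 105 CPM in Control and 124, 123 and 119 CPM in Mutant, and passed without Control 3 (0.43, SE 0.11, adjusted p = 0.0357) but not with it (0.36, SE 0.10, adjusted p = 0.302). RLTR13G had 122, 132 and 212 CPM in Control, where Control 3 exceeded all Mutant libraries at 171, 169 and 189 CPM, and passed without it (0.47, adjusted p = 0.00778) but not with it (0.19, adjusted p = 0.685). On the other side, RLTR13B1 had 125, 121 and 115 CPM in Control and 101.2, 103 and 106 CPM in Mutant, and RLTR13A2 had 96.4, 123 and 110.4 CPM and 90.2, 91.7 and 76.8 CPM. Both had every Mutant library below every Control library and neither passed (log2 fold change −0.22 and −0.35, adjusted p = 0.331 and 0.334 over 6 libraries).

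RLTR44-int, an internal part, had 54.5, 53.9 and 70.6 CPM in Control and 87.0, 100.6 and 94.6 CPM in Mutant. Its groups did not overlap, with Control 3 between them. The log2 fold change was 0.66 (SE 0.13, adjusted p = 0.134) over 6 libraries and 0.79 (SE 0.12, adjusted p = 0.00205) without Control 3, and DESeq2 called it over 6 libraries (adjusted p = 0.00616). RLTR30D_RN had 377, 372 and 513 CPM in Control and 513, 639 and 526 CPM in Mutant. In that row Control 3 fell just short of the lowest Mutant library, and the log2 fold change was 0.41 (SE 0.14, adjusted p = 0.347) with it and 0.58 (SE 0.09, adjusted p = 0.0028) without it.

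Further names in the RLTR10 and RLTR21 series passed without Control 3. RLTR10-int had 326, 343 and 442 CPM in Control and 456, 402 and 478 CPM in Mutant (0.41, SE 0.08, adjusted p = 0.0083, and 0.27, adjusted p = 0.454 over 6 libraries). RLTR21 stood at 260.4, 272 and 339 CPM and 321, 354 and 375 CPM (0.39, SE 0.08, adjusted p = 0.00979, and 0.27, adjusted p = 0.419 over 6 libraries). In both, Control 3 lay inside the Mutant range. RLTR10 (0.28, adjusted p = 0.0433, against 0.18 and 0.454 over 6 libraries) and RLTR12BD_Mm (0.27, adjusted p = 0.0485, against 0.20 and 0.409) completed the 17 and were named after their values were seen.

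The most counted elements differed little. RMER15 had a Control mean of 2074 ± 28.6 and a Mutant mean of 2088 ± 60.6 CPM (SD, n = 3 each), a log2 fold change of 0.01 (SE 0.04, adjusted p = 0.936). RLTR17B_Mm, RLTR19-int, RLTR25B, RMER19B, RMER1B, RMER1A and RMER4B lay between −0.06 and 0.05, with adjusted p of at least 0.638. RLTR20A4 had 1494, 1473 and 1508 CPM in Control and 1530, 1651 and 1616 CPM in Mutant, so that its groups did not overlap, by a log2 fold change of 0.10 (SE 0.04, adjusted p = 0.437), and of 0.11 (adjusted p = 0.238) without Control 3. RMER6A had 1221, 1205 and 1107 CPM in Control and 1128, 1052 and 1041 CPM in Mutant (−0.13, SE 0.06, adjusted p = 0.419, and −0.18, SE 0.05, adjusted p = 0.0767 without Control 3).

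No RMER element passed in either fit, and their log2 fold changes reached from −0.17 to 0.26 over 6 libraries. RMER16 had 7 of 9 elements above 0 and RMER17 7 of 10, while all 4 RMER13 elements were below 0. RMER13A2 was the only RMER element with every Mutant library below every Control library, and RMER12B and RMER16-int were the only RMER elements with every Mutant library above. RMER13A2 and RMER12B were named after their values were seen. The MYSERV elements did not pass either. MYSERV6-int had 583, 516 and 507 CPM in Control and 509, 492 and 481 CPM in Mutant (−0.12, adjusted p = 0.521), MYSERV-int had a log2 fold change of −0.09 and MYSERV16_I-int one of 0.12.

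The elements with every Mutant library below every Control library were all LTRs of the RLTR and RMER series. The lowest values among elements of at least 10 CPM were those of RLTR19A2 (−0.43, SE 0.22, adjusted p = 0.471), RLTR31B_Mm (−0.39, SE 0.17, adjusted p = 0.447) and RLTR12G (−0.38, SE 0.15, adjusted p = 0.419). RLTR12G stood at 70.1, 53.2 and 51.5 CPM in Control and 43.0, 47.8 and 43.7 CPM in Mutant. RLTR19A2 stood at 12.2, 13.6 and 9.55 CPM and 8.39, 8.89 and 9.16 CPM. The Control and Mutant libraries of RLTR31B_Mm overlapped. No element was called lower by edgeR over 6 libraries or without Control 3 as fitted with TMM and no block. Without Control 3, the replicate block called 1 lower, RMER6A, and leaving out Mutant 1 as well called 7 lower. No share of all subfamilies is given for either count. Of the elements chosen by lowest p over 6 libraries, RLTR31_Mm (0.48, SE 0.15, adjusted p = 0.331) and RLTR45-int (0.20, SE 0.07, adjusted p = 0.334) had every Mutant library above every Control library and did not pass.

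Internal parts and LTRs were set side by side. The 27 internal parts tested had a median log2 fold change of 0.14 over 6 libraries and 0.17 without Control 3, and 6 of 27 were called in the latter. For the 213 LTRs and undivided names the median was 0.03, and without Control 3 it was 0.04 with 11 of 214 called, beside 7.34% of all subfamilies. The summed internal level averaged 6388 ± 418 CPM for Control and 6875 ± 110.5 CPM for Mutant (SD, n = 3 each, exact permutation p = 0.2), and that of the LTRs 39086 ± 571 and 39728 ± 172 CPM (exact permutation p = 0.2). Both sums overlapped between the groups and both turned negative with total counts. The names gave 14 pairs of an internal part and its LTR, of which 9 were above 0 in both parts, 1 below 0 in both and 4 of opposite sign. The internal part had the larger value in 10 of 14. Both parts were called without Control 3 in MMERVK10D3 and RLTR10, and one part in ERVB4_1B (the LTR) and ERVB5_1 (the internal part).

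Where Control 3 fell was counted for the 17 elements called without it. It lay above every Mutant library in 6 of them, MMERVK10D3_I-int, MMERVK10D3_LTR, ERVB4_1C-LTR_Mm, ERVB5_1-I_MM-int, ERVB7_1-LTR_MM and RLTR13G. It lay within the Mutant range in 4, between Control 1 and 2 and the Mutant libraries in 6, and among Control 1 and 2 in MMERVK9C_I-int alone. So 7 of the 17 had non-overlapping groups over all 6 libraries. The 17 were chosen by Control 1 and 2 being low, and their placement is a description. Over all 240 elements Control 3 was above both other Control libraries in 105 (43.8%, against 41.3% of all subfamilies), below both in 80 (33.3%, against 37.5%), above all 5 other libraries in 42 (17.5%, against 16.7%) and below all 5 in 37 (15.4%, against 14.2%).

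**Figure D4:**
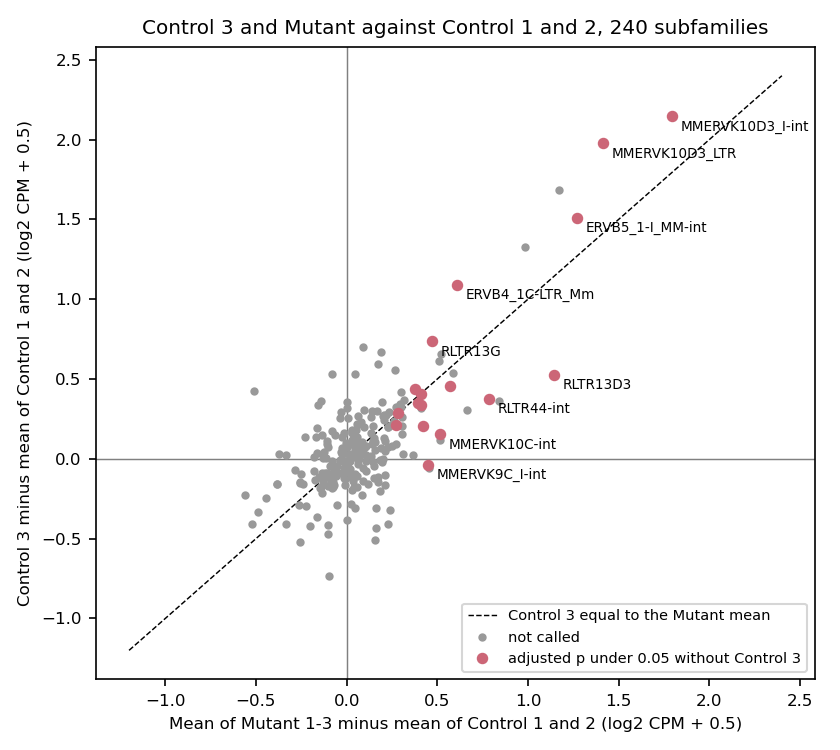
Log2 level of Control 3 and of the Mutant mean, each relative to the mean of Control 1 and 2, for the 240 elements tested. The 17 elements called without Control 3 are marked. Control 3 exceeds every Mutant library in 6 of these 17, lies within the Mutant range in 4, between the groups in 6, and among Control 1 and 2 in 1.

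The authors' deposited repeat comparison was recomputed to learn which libraries it rests on. DESeq2 on the deposited counts without Control 3 gave its mean levels to within a relative difference of 4.7e-10 and its log2 fold changes to within 0.00134 over 1093 subfamilies. With all 6 libraries the largest differences were 0.496 and 4.25, and leaving out any other library gave no closer match. The values of the authors' deposited repeat table are thus those of 2 Control and 3 Mutant libraries. Of 252 elements in it, 12 were called (4.76%), all higher, beside 5.49% of all subfamilies higher and 0.274% lower. All 12 were also among the 17 called by edgeR without Control 3. In the authors' deposited gene table the Control means behave instead as means of 3 values: of 4037 genes with 20 to 80 TPM, 99.9% became whole in the fourth decimal when multiplied by 3 (tolerance 0.02), against 34.0% when multiplied by 2. This concerns the mean TPM only, and which libraries entered the authors' gene test was not tested.

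The genes of retrovirus silencing were taken from a list of 33, of which 31 are in the authors' deposited gene table. Of these, 16 were lower in Mutant, among them Uhrf1, the gene removed by design, none higher and 15 not called, beside 8.11% of all 22631 genes called lower and 9.02% higher. All genes include 1741 at 0 TPM in Control, against 1 of the 31, so these shares are not matched for expression level. Values are the authors' means, without a spread per library, and the log2 estimate is their test statistic times its standard error. In the authors' deposited table Trim28, the corepressor that KRAB zinc finger proteins recruit, had means of 360.4 TPM (Control) and 292 TPM (Mutant) (estimate −0.32, SE 0.05, adjusted p = 4.61e-08). By the authors' deposited table Setdb1, the H3K9 methyltransferase acting with it, had 39.2 TPM and 33.1 TPM (−0.29, SE 0.08, adjusted p = 0.00129). The heterochromatin protein genes Cbx1 (−0.48), Cbx3 (−0.33) and Cbx5 (−0.35), the chromatin assembly genes Chaf1a (−0.44) and Chaf1b (−0.57), Hells (−0.43), which promotes DNA methylation, and Dnmt1 (−0.37) were also lower in the authors' deposited table. Zfp809, a zinc finger protein that targets retroviral sequences, was not called there, with 18.5 TPM in Control and 21.1 TPM in Mutant as the authors' deposited table gives them (0.25, adjusted p = 0.315), nor were Atrx, Daxx, Morc3, Ehmt1 and Ehmt2.

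The cell type was checked in the authors' deposited gene table. All 8 satellite cell and myoblast markers were listed above 0 TPM and summed to 2573 TPM in Control and 2538 TPM in Mutant, with 3 called higher and 4 lower. Of 10 macrophage and leukocyte markers 8 were listed, summing to 34.3 and 115 TPM, mostly through Laptm5 (25.1 and 84.8 TPM), with 2 called higher. The other one called was Cd68 (3.46 and 6.27 TPM), Fcer1g had 3.22 and 19.3 TPM without a call, and the list's median log2 estimate was 1.13. Ptprc, which defines leukocytes, stood at 0.381 and 0.303 TPM, and Csf1r at 0.156 and 0.430 TPM. Endothelial markers summed to 16.4 and 12.9 TPM, with Tek called higher and Pecam1 and Cdh5 lower, and fibroblast markers to 164 and 284 TPM with 1 of 6, Gsn, called higher. The part of these cell types in the repeat results was not tested.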

How the data were processed

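RNA-seq libraries of 3 Control and 3 Mutant samples were analysed. The submitters' processing notes list featureCounts 2.0.1, STAR 2.7.6a, Trim Galore 0.6.6 and DESeq2, with the builds GRCm38 and mm10. The sources used here state neither the repeat annotation nor the handling of reads that map to many copies. Repeat subfamilies come as raw counts, deposited by the authors for each library. Per the file headers, their repeat comparison holds mean signal (normalised counts), log2 fold changes, test scores and p-values, and their deposited gene comparison holds mean TPM, log2 fold changes, test scores and p-values. A gene comparison of arms named PT and PUT was not used here.

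Counts were tested here with edgeR 4.0.16 (R 4.3.3), using glmQLFit and glmQLFTest, with TMM factors and filterByExpr over all subfamilies, on 6 libraries and again without Control 3, with p-values adjusted by Benjamini-Hochberg and called at 0.05. An SE is the log2 fold change divided by the root of the test statistic. The fit was tested on simulated data with the same spread in every library. The simulation held no outlying Control library and no rise of IAP elements as seen here, so it does not cover these features. DESeq2 1.42.0, limma-voom (limma 3.58.1), other scalings and filters, a replicate block and leaving out each library were the alternatives. Summed CPM were compared by exact two-sided permutation tests in scipy 1.17.1. The 95% Wilson intervals reflect counting error alone, because reads copied by PCR, with no molecular identifier, do not stand for separate molecules. Total counts per library of about this size leave elements below 10 CPM with few reads.

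Named elements were all tested ERVB, MMERVK and MYSERV elements, the 10 with the highest mean CPM, the 10 with the lowest p in each of both fits, and the 3 with the lowest fold change of at least 10 CPM. The elements, gene lists and marker lists were chosen with earlier results of these data known.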

Additional observations from a re-analysis of the deposited data

How the results depend on the processing

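Over 6 libraries edgeR called 0 of 984 subfamilies and 0 of the 240 elements. Total counts in place of TMM gave 6 and 1, DESeq2 gave 16 and 5, and leaving out 1 library gave 0 to 73 and 0 to 17, the highest without Control 3. With total counts the median of the elements was −0.168 in place of 0.0332, beside −0.203 for all subfamilies, and leaving out 1 library gave 0.0239 to 0.0461. Without Control 3, the count of 17 became 86 with total counts (8 higher, 78 lower), 22 with the replicate number as a block (added after seeing the data, 16 shared) and 2 to 39 with 1 more library left out. TMM without IAP rows called 17 without Control 3, and DESeq2 size factors called 16. No share of all subfamilies is given for these counts. The log2 ratio of the summed level was 0.0354, with −0.163 for total counts and 0.0263 to 0.0538 without 1 library. Total counts also gave log2 ratios of −0.019 for the ERVB sum, −0.156 for RLTR, −0.195 for RMER, −0.0883 for internal parts and −0.176 for LTRs. The same scaling turned negative ERVB3_1-I_MM-int (−0.193), ERVB4_1-I_MM-int (−0.0905), ERVB4_1C-LTR_Mm (−0.00229), ERVB4_2-I_MM-int (−0.180), ERVB5_1-LTR_MM (−0.0909), ERVB7_3-LTR_MM (−0.0935), ERVB7_4-LTR_MM (−0.123), MMERVK9E_I-int (−0.021), MYSERV16_I-int (−0.0804), RLTR20A4 (−0.101), RLTR45-int (−0.00300), RMER15 (−0.191), RMER19B (−0.148), RMER1A (−0.189) and RMER1B (−0.159). Leaving out 1 library changed the sign of the MYSERV sum (−0.0798 to 0.00148) and of 13 elements, which ranged as follows: ERVB2_1A-I_MM-int −0.218 to 0.0256, ERVB3_1-I_MM-int −0.126 to 0.283, ERVB4_1-I_MM-int −0.0241 to 0.22, ERVB4_1C-LTR_Mm −0.0323 to 0.608, ERVB4_2-I_MM-int −0.108 to 0.159, ERVB5_1-LTR_MM −0.159 to 0.237, ERVB7_2-LTR_MM −0.0875 to 0.072, ERVB7_3-LTR_MM −0.123 to 0.227, RLTR17B_Mm −0.0214 to 0.0218, RLTR19-int −0.0663 to 0.0972, RLTR25B −0.0673 to 0.0292, RMER15 −0.00807 to 0.0254 and RMER1A −0.0253 to 0.0468. The replicate block over 6 libraries called 0 of 984 and changed no other call; the log2 ratio of the summed level was 0.0356 in it. Same-numbered libraries correlated in their deviations at 0.28, 0.07 and 0.27, and differently numbered ones at −0.29 to 0.15. Whether the numbers pair samples was not tested, and the main fits use no block. The cause of these changes was not tested.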

Other observations

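For MMERVK10C-int and MMERVK10D3_I-int, the subfamilies whose log2 level ran most alike over the 6 libraries were listed, among 907 of at least 10 CPM. The libraries share depth and scaling and fall apart by IAP level, so these values only describe. The 5 nearest MMERVK10D3_I-int were all IAP names, IAPLTR1a_Mm, IAPLTR4, IAPLTR3-int, IAPLTR1_Mm and IAPEz-int, at Pearson coefficients of 0.990 to 0.994. The 5 nearest MMERVK10C-int held no IAP name and were MuRRS4-int, RLTR42-int, RLTR1B-int, MLTR18_MM and MLT1L, at 0.947 to 0.967.

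Among RLTR series other than RLTR13 with at least 9 elements tested, RLTR9 had 9 of 12 above 0 (log2 fold change −0.13 to 0.52), RLTR10 8 of 10 (−0.23 to 0.42), RLTR20 10 of 16 (−0.44 to 0.18) and RLTR12 3 of 9 (−0.38 to 0.30) over 6 libraries.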
